A study of Mus musculus with 8 samples.

Results

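The lysosomal enzymes and membrane proteins other than cathepsins, 33 genes, were followed in belly skin of mice that carry a transgene for human hurpin. Hurpin, also called SERPINB13, is a clade B serpin that inhibits the lysosomal protease cathepsin L. The genes were taken by symbol, as a list of lysosomal hydrolases, their helper proteins and lysosomal membrane proteins. Of the 33 genes, 32 had a probe set annotated to that symbol alone, out of 18193 genes with such a probe set in the series, and Cd63 was not analysed here. The 32 genes had 74 probe sets (10 genes had 1, Ids had 6), and the probe set with the highest mean over the animals stood for each gene unless stated otherwise.

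Lysosomes are acidic compartments in which proteins, lipids and complex sugars are taken apart by soluble hydrolases. The hydrolases are made in the endoplasmic reticulum, tagged with mannose 6-phosphate and carried to the lysosome by receptors. Membrane proteins such as LAMP1 and LAMP2 line the compartment, and other membrane proteins move its products out. Many of these genes share a short promoter element that is bound by TFEB and its relatives, and loss of single members causes storage diseases. In skin, lysosomal enzymes and their relatives also act in the outer epidermis, where lipids for the barrier are processed, and macrophages of the dermis are rich in lysosomes.

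The groups were 4 mice with the hurpin transgene (females 7 and 84, males 11 and 17) and 3 wildtype mice (males 26 and 28, female 29), all 8 months old. Total RNA of belly skin was measured by oligonucleotide array, with wildtype 29 on 2 arrays, whose values were averaged. The strain, the promoter that drives the transgene and the number of founder lines are not given in the sources used here, and the transgene itself was not checked on the array. In whole skin, fewer cells of a type and less RNA per cell cannot be told apart. Values are log2 of signal intensity plus 21.8, differences are transgenic minus wildtype on this scale, and n was 4 transgenic and 3 wildtype animals throughout.

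The intensities of an array summed to between 34785081 and 37857733, and the number of arrays limits the precision. For Gapdh, a control probed at both ends, the 3' signal divided by the 5' signal reads how far labelled targets reach towards the 5' end. This Gapdh ratio was 13.8 in transgenic 7 and 17.2 in transgenic 84. It was 4.68 in transgenic 17, 1.45 in transgenic 11 and between 0.927 and 1.41 on the wildtype arrays. An exact permutation test on log2 values, over the 35 splits of the 7 animals, gave a 2-sided p = 0.0571. The transgenic animals with the highest ratios were also the females, so ratio and sex cannot be told apart within that group. Keratinocyte markers were high in every animal (mean level of 7 markers between 13.21 and 13.73), while the mean of 8 hair shaft keratins was 6.67 in wildtype 26 and 9.90 in transgenic 17 against 12.71 to 14.28 in the others.

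A promoter element shared by many of the genes is shown first. Lysosomal genes are known to share it, so its share among the genes below is not independent of their choice. Promoter windows of 300 bases (250 before to 50 after the annotated start, RefSeq, GRCm38.p6) were given for 30 of the 32 genes, Asah1 and Npc1 being the others. The letters GTCACGTG, the core of the element bound by TFEB, were searched on both strands, so that a hit is written GTCACGTG or CACGTGAC, and overlapping hits were joined. They stood in the windows of 9 of the 30 genes (30.0%), against 2.25% of all 32851 windows in the table, 2.55% of all genes and 4.44% of the genes that passed the level filter. A match is a description of the letters and not a measured binding site. The stretches of the 9 genes are given 5′ to 3′ on the strand of the gene, with the element in capitals.
Arsa: tcaactcagtGTCACGTGttgtctgctc
Cln3: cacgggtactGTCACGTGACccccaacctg
Gla: tgagatctcgGTCACGTGagcaactctc
Glb1: ctgcttctgaGTCACGTGgcctacagag
Lamp1: tgccgactggCACGTGACcacatcacgt
Lgmn: tggaatgtctGTCACGTGgtccatttta
Mcoln1, distal: ggtcgcgcttGTCACGTGttcagttcag
Mcoln1, proximal: gcgccccgctCACGTGACcgcggcgcat
Naglu: caaccttcagGTCACGTGgcccgaggtc
Sgsh: gcctgccgtgCACGTGACcgtggggagc

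The element began 18 bases before the start in Arsa (chr15:89477425-89477452, minus strand), 28 in Lamp1 (chr8:13159123-13159150, plus strand) and 29 in Sgsh (chr11:119355522-119355549, minus strand). In Glb1 (chr9:114401018-114401045, plus strand) and Lgmn (chr12:102439126-102439153, minus strand) it began 50 and 51 bases before the start. Mcoln1, which encodes a calcium channel of the lysosomal membrane, had 2 copies, 73 and 45 bases before the start (chr8:3500436-3500463 and chr8:3500464-3500491, plus strand). Naglu (chr11:101070009-101070036, plus strand) had it 75, Cln3 (chr7:126583340-126583369, minus strand) 123 and Gla (chrX:134601184-134601211, minus strand) 196 bases before the start. In Cln3 the hits on both strands overlapped to give the 10 letters GTCACGTGAC, which stood in 0.326% of all windows.

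No lysosomal gene passed the test between transgenic and wildtype skin, and the genes were evenly split in direction. Of the 32 genes, 16 lay above and 16 below 0, with a median log2 difference of 0.0033 against 0.05 over all 13559 genes that passed the level filter. The differences ran from -0.81 for Smpd1 to 0.75 for Arsb. With limma, 0 of the 32 had a Benjamini-Hochberg adjusted p under 0.05, and the lowest adjusted p was 0.338, where 0.0148% of the 27022 probe sets tested and 0.0% of the genes by their most abundant probe set were called. At an unadjusted p under 0.05 the number was 5 (15.6%), 2 higher and 3 lower, against 9.0% of all genes (4.4% higher and 4.6% lower). The groups did not overlap in 3 of the 32 genes (9.38%), all lower in transgenic skin, against 9.06% of all genes (5.16% higher and 3.89% lower).

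For the most abundant probe sets, the 95% confidence intervals were narrow enough to bound the size of most differences as measured. They come from the fit without a covariate and take no account of the Gapdh ratio. That ratio was higher in every transgenic than in every wildtype animal. The intervals also do not bound what other probe sets of the same gene gave. In Psap the interval ran from -0.64 to 0.35, and its other probe set gave -1.49. Of 18 genes with a further probe set past the level filter, 12 had probe sets that differed in sign. For 28 of the 32 genes the interval lay between -1 and 1, that is within a factor of 2 in either direction, against 74.3% of all genes. The 4 exceptions were Cln3, Smpd1, Arsb and Lipa. The median interval was 0.93 wide. Between the 2 arrays of wildtype 29 the genes differed by a median of 0.12 (0.16 over all genes), while the median SD was 0.29 over the wildtype and 0.23 over the transgenic animals. For 27 of the 32 genes the range over the 3 wildtype animals was larger than the difference between the group means, against 79.1% of all genes.

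**Figure D1:**
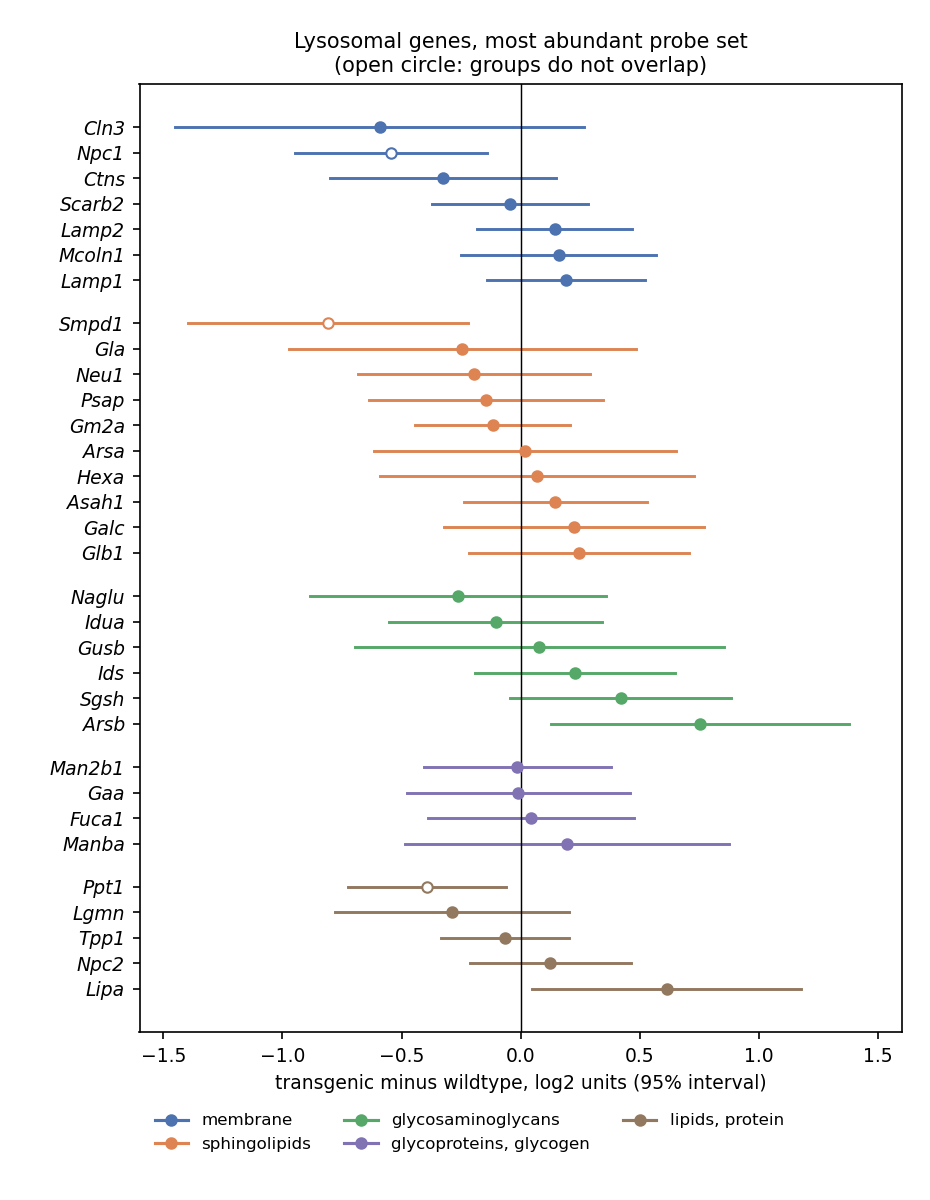
Log2 difference between transgenic and wildtype means (x axis, log2 units) for each of the 32 lysosomal genes, grouped by role, with the 95% interval from limma as a line and an open circle where the groups do not overlap (Npc1, Smpd1 and Ppt1). The points lie on both sides of 0, from -0.81 for Smpd1 to 0.75 for Arsb.

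The counts of members and of all genes depended on single animals. Genes at an unadjusted p under 0.05 numbered 8 without wildtype 26, where 15.2% of all genes stood there, and 1 without wildtype 29, where 4.94% did. They numbered 3 each without wildtype 28 (3.88% of all genes), transgenic 17 (7.33%) and transgenic 84 (5.18%), and 2 without transgenic 7 (5.44%). Genes without overlap numbered 12 without wildtype 26, where the share of all genes was 29.2%, and 6 without transgenic 11, where it was 22.5%. When log2 of the Gapdh ratio was entered as a covariate, called adjustment for the ratio from here on, 1 gene, Sgsh, stood at an unadjusted p under 0.05 (3.13%, against 2.56% of all genes). Without transgenic 7 and 84 it was again 1 gene, against 3.38% of all genes. Every transgenic animal had a higher Gapdh ratio than every wildtype animal, so ratio and group cannot be cleanly told apart. Log2 of the ratio had an SD of 1.64 over the transgenic and 0.085 over the wildtype animals. Adjusted differences therefore lean on the slope among the transgenic animals. They are given without intervals and are not differences freed of target quality.

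Among the membrane proteins, 7 of which were measured, Npc1 lay lower in every transgenic animal and in the others the groups overlapped. Of the 7, 3 lay above and 4 below 0, with a median of -0.04. Npc1 encodes the protein that exports cholesterol from the lysosome. It measured 8.82, 8.91, 8.53 and 8.71 in transgenic 7, 11, 17 and 84, and 9.09, 9.25 and 9.53 in wildtype 26, 28 and 29. All 4 transgenic values lay below all 3 wildtype values, with means of 8.74 ± 0.16 (SD, n = 4) and 9.29 ± 0.22 (SD, n = 3). The log2 difference was -0.54 (SE 0.18, 95% interval -0.95 to -0.14, limma adjusted p = 0.3396). Adjusted for the ratio it was -0.48, and it was -0.57 without transgenic 7 and 84. Npc1 had 1 probe set, so its agreement with another could not be seen.

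The structural membrane glycoproteins Lamp1 and Lamp2, the most used markers of lysosomal mass, had log2 differences of 0.19 (95% interval -0.14 to 0.52) and 0.14 (-0.18 to 0.47). Lamp1 measured 13.35, 13.08, 13.46 and 13.34 in transgenic 7, 11, 17 and 84, and 13.35, 13.07 and 12.93 in wildtype 26, 28 and 29. Lamp2 measured 13.47, 13.38, 13.64 and 13.63 in the same transgenic and 13.67, 13.22 and 13.28 in the same wildtype animals. In both genes the groups overlapped, and in Lamp2 wildtype 26 was the highest of all. The 3 other probe sets of Lamp2 gave 0.11, 0.20 and -0.18. Scarb2, which carries glucocerebrosidase to the lysosome, gave -0.04, the calcium channel gene Mcoln1 gave 0.16, and Ctns, the cystine exporter, gave -0.33.

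Cln3, a membrane protein whose loss causes juvenile Batten disease, had probe sets that pointed in opposite directions. Its most abundant probe set measured 7.00, 8.32, 8.36 and 7.16 in transgenic 7, 11, 17 and 84, and 8.62, 8.17 and 8.11 in wildtype 26, 28 and 29 (log2 difference -0.59, SE 0.38, adjusted p = 0.561). The low values were those of transgenic 7 and 84, while transgenic 11 and 17 lay within the wildtype range. The other probe set measured 8.14, 8.10, 8.10 and 7.48 in the same transgenic and 7.65, 7.18 and 7.25 in the same wildtype animals (0.59, SE 0.24, adjusted p = 0.401), so that only transgenic 84 lay within the wildtype range. Adjusted for the ratio the differences were 0.39 and 0.85.

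The 250 bases before the start that carries the element of Cln3 (chr7:126583237-126583486, minus strand) are shown because the probe sets of this gene disagree and because they hold a further CACGTG outside the capitals.
Cln3: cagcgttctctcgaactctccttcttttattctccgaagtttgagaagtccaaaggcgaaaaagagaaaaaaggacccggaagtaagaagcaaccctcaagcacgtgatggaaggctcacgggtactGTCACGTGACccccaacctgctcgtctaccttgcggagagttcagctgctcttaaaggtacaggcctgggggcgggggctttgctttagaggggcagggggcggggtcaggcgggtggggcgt

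Of the 10 genes of sphingolipid and ganglioside breakdown 5 lay above and 5 below 0, with a median of -0.05, and Smpd1 gave the lowest value of all members. Smpd1 encodes acid sphingomyelinase, which makes ceramide from sphingomyelin and is used in forming the epidermal barrier. It measured 9.96, 11.10, 10.77 and 10.23 in transgenic 7, 11, 17 and 84, and 11.32, 11.29 and 11.36 in wildtype 26, 28 and 29. All transgenic values lay below the close wildtype values, in the reverse order of the Gapdh ratio except between transgenic 7 and 84. The means were 10.51 ± 0.51 (SD, n = 4) and 11.32 ± 0.03 (SD, n = 3), a log2 difference of -0.81 (SE 0.26, 95% interval -1.40 to -0.22, limma adjusted p = 0.338). The difference was -0.07 when adjusted for the ratio and -0.39 without transgenic 7 and 84, and the other probe set of Smpd1 gave 0.07 with overlapping groups.

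The 250 bases before the start of Smpd1 (chr7:105554110-105554359, plus strand) hold neither GTCACGTG nor CACGTG. They are shown beside those of Cln3 as the window of the gene with the lowest difference.
Smpd1: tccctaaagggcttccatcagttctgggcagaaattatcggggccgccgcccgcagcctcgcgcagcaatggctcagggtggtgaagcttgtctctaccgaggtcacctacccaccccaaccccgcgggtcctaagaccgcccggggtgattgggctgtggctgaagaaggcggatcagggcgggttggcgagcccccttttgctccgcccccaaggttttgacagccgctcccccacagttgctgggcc

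The other genes of sphingolipid breakdown did not pass the test either, and in each the groups overlapped. Glb1, the beta-galactosidase read as a marker of senescent cells, gave 0.24, and Galc, which cleaves galactosylceramide, gave 0.22. Asah1, the acid ceramidase, gave 0.15, Hexa, the alpha subunit of beta-hexosaminidase, 0.07 and Arsa, the sulfatase of myelin sulfatide, 0.02. On the lower side Gla, the alpha-galactosidase of Fabry disease, gave -0.24 and the sialidase gene Neu1 gave -0.20. Of the activator proteins, which lift lipids out of membranes for the enzymes, Psap (the precursor of the saposins) gave -0.15 and Gm2a gave -0.12. The other probe sets of Gm2a gave -0.80, without overlap (limma adjusted p = 0.422, and 0.13 when adjusted for the ratio), and 0.24. The adjusted p of these 9 genes lay between 0.662 for Glb1 and 0.987 for Arsa.

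Of the 6 genes of glycosaminoglycan breakdown 4 lay above 0, and Arsb and Sgsh had the largest differences. Arsb encodes the sulfatase that removes sulfate from dermatan and chondroitin sulfate, which are glycosaminoglycans found in dermis. It measured 11.43, 10.73, 11.44 and 11.65 in transgenic 7, 11, 17 and 84, and 11.10, 10.25 and 10.33 in wildtype 26, 28 and 29. Transgenic 7, 17 and 84 lay above all wildtype animals and transgenic 11 lay below wildtype 26. The means were 11.31 ± 0.40 (SD, n = 4) and 10.56 ± 0.47 (SD, n = 3), a log2 difference of 0.75 (SE 0.27, 95% interval 0.13 to 1.38, limma adjusted p = 0.372). Its other probe sets gave 0.13 and -0.02, and adjusted for the ratio the difference was 0.17.

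Sgsh encodes the sulfamidase of heparan sulfate breakdown. It measured 8.50, 8.91, 8.64 and 8.48 in transgenic 7, 11, 17 and 84, and 8.55, 8.08 and 8.00 in wildtype 26, 28 and 29. Transgenic 7 and 84 lay just below wildtype 26, and all 4 lay above the other wildtype animals (log2 difference 0.42, SE 0.20, 95% interval -0.04 to 0.88, adjusted p = 0.461). Adjusted for the ratio it was 0.72, and limma called no gene of the 32 in that fit. The second probe set of Sgsh lay below the level filter. Of the other enzymes of heparan and dermatan sulfate breakdown, Ids gave 0.23, Gusb 0.08, Idua -0.11 and Naglu -0.26.

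The 250 bases before the start of Sgsh (chr11:119355511-119355760, minus strand) hold the element close to the start and are shown as the window of the gene with the highest difference among the 9 that carry it.
Sgsh: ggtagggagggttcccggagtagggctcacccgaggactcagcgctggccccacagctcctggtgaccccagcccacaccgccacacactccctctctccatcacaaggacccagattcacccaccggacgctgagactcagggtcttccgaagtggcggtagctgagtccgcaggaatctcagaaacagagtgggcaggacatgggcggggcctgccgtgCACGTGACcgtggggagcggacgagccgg

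The 4 genes that cleave sugars of glycoproteins and glycogen had a median difference of 0.02, with 2 on either side of 0. Man2b1 and Manba, the alpha- and beta-mannosidases, gave -0.01 and 0.19, Fuca1, the fucosidase, gave 0.04, and Gaa, the acid glucosidase of Pompe disease, gave -0.01. Another probe set of Fuca1 had the lowest p of all 60 that passed the level filter, at 8.27, 8.85, 8.64 and 8.15 in transgenic 7, 11, 17 and 84, and 9.09, 9.30 and 9.16 in wildtype 26, 28 and 29. All its transgenic values lay below the wildtype values (-0.70, SE 0.21, limma adjusted p = 0.322), and adjusted for the ratio it gave -0.21. The remaining probe set of Fuca1 past the filter gave -0.05. Manba measured 9.60, 9.57, 9.91 and 9.55 in transgenic 7, 11, 17 and 84, and 10.17, 9.46 and 8.76 in wildtype 26, 28 and 29, so that the wildtype animals alone spanned the transgenic values on both sides.

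Among the genes of lipid ester, cholesterol and protein breakdown, Ppt1 lay lower and Lipa lay higher. Ppt1 encodes the thioesterase that removes palmitate from proteins. It measured 10.55, 10.87, 10.80 and 10.90 in transgenic 7, 11, 17 and 84, and 11.31, 11.04 and 11.17 in wildtype 26, 28 and 29. The groups did not overlap, with means of 10.78 ± 0.16 (SD, n = 4) and 11.17 ± 0.14 (SD, n = 3), a log2 difference of -0.39 (SE 0.15, 95% interval -0.72 to -0.06, limma adjusted p = 0.375). The second probe set of Ppt1 did not overlap either, at 9.13, 9.92, 9.48 and 9.26 against 9.996, 9.99 and 10.10, a difference of -0.58 (SE 0.20, adjusted p = 0.357). Another that passed the level filter gave -0.03. Adjusted for the ratio the first gave -0.32 and the second -0.07.

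The window of Ppt1 (chr4:122835977-122836226, plus strand), shown as that of the gene with 2 probe sets without overlap, holds neither GTCACGTG nor CACGTG.
Ppt1: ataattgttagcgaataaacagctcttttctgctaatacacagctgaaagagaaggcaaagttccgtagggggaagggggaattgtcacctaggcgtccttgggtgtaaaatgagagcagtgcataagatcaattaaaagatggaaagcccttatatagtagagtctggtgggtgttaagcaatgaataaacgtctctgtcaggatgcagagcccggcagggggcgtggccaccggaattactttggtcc

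Lipa encodes the acid lipase that cleaves cholesteryl esters and triglycerides. It measured 10.41, 9.51, 10.28 and 10.12 in transgenic 7, 11, 17 and 84, and 9.74, 9.55 and 9.11 in wildtype 26, 28 and 29. Transgenic 7, 17 and 84 lay above the wildtype range and transgenic 11 lay within it. The means were 10.08 ± 0.40 (SD, n = 4) and 9.47 ± 0.32 (SD, n = 3), a log2 difference of 0.61 (SE 0.25, 95% interval 0.05 to 1.18, limma adjusted p = 0.402). The other probe sets gave 0.37 and -0.20, and adjusted for the ratio the difference was 0.13. Npc2, the soluble partner of Npc1, gave 0.12. The protease genes Tpp1 and Lgmn, the latter encoding the enzyme that processes cathepsins, gave -0.07 and -0.29.

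**Figure D2:**
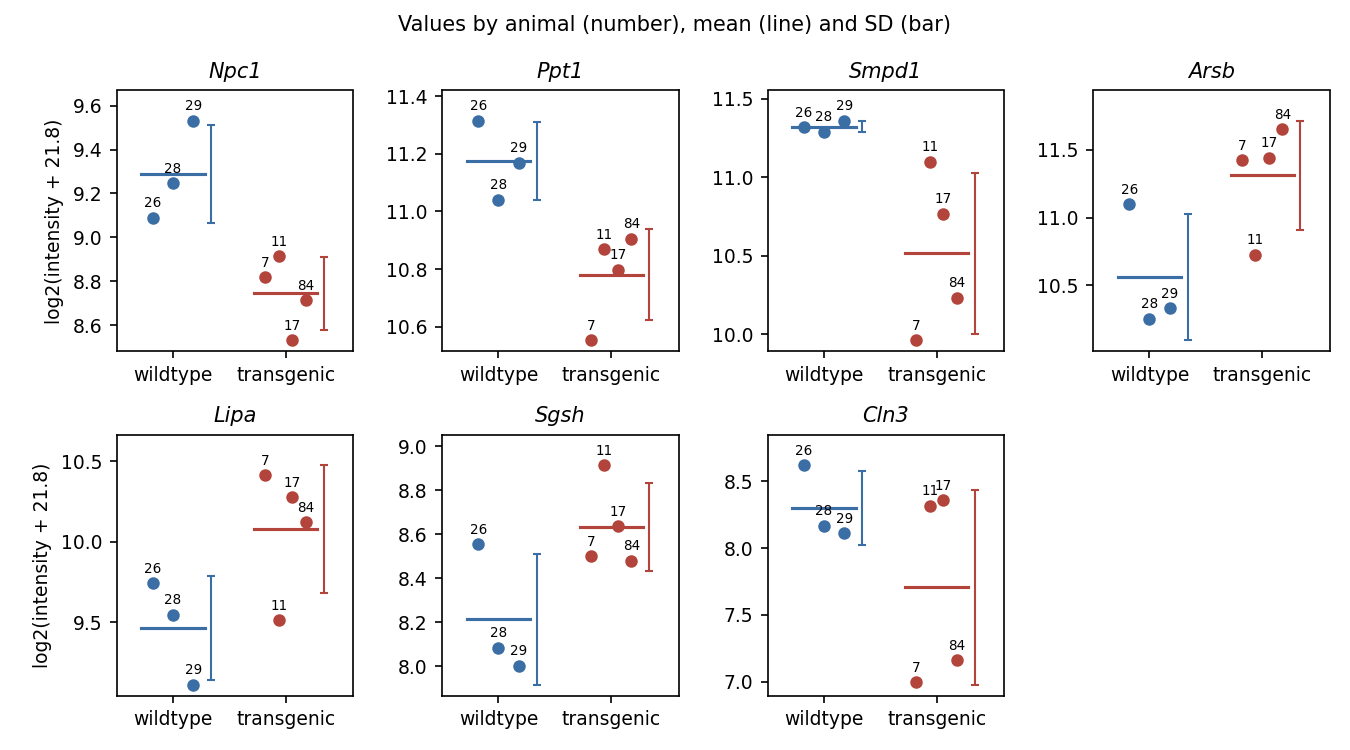
Log2 of intensity plus 21.8 (y axis, a scale of its own for each gene) in each animal, with its number, for the 7 genes with no overlap, an unadjusted p under 0.05 or one of the 6 largest differences. Lines are group means and bars are SD (n = 3 wildtype, n = 4 transgenic), and in Npc1, Ppt1 and Smpd1 all transgenic points lie below all wildtype points.

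Probe sets of the same gene often disagreed. Of the 60 probe sets that passed the level filter, 28 were further probe sets of 18 of the genes. In 6 of these 18 genes all probe sets shared a sign (Gaa, Idua, Npc2, Ppt1, Psap and Scarb2), and in 12 they did not. The median distance between the lowest and highest difference of a gene was 0.65, against a median absolute difference of 0.19 over the 32 genes. Of the 28 further probe sets 17 lay below 0, with a median of -0.08, where over all genes 59.0% of further probe sets lay below 0 with a median of -0.09. Over all 60 probe sets limma called 0, with 10 (16.7%) at an unadjusted p under 0.05 against 11.7% of all probe sets (3.77% higher and 7.93% lower). The groups did not overlap in 6 of the 60, all lower in transgenic skin, against 11.3% of all probe sets (4.58% higher and 6.71% lower).

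**Figure D3:**
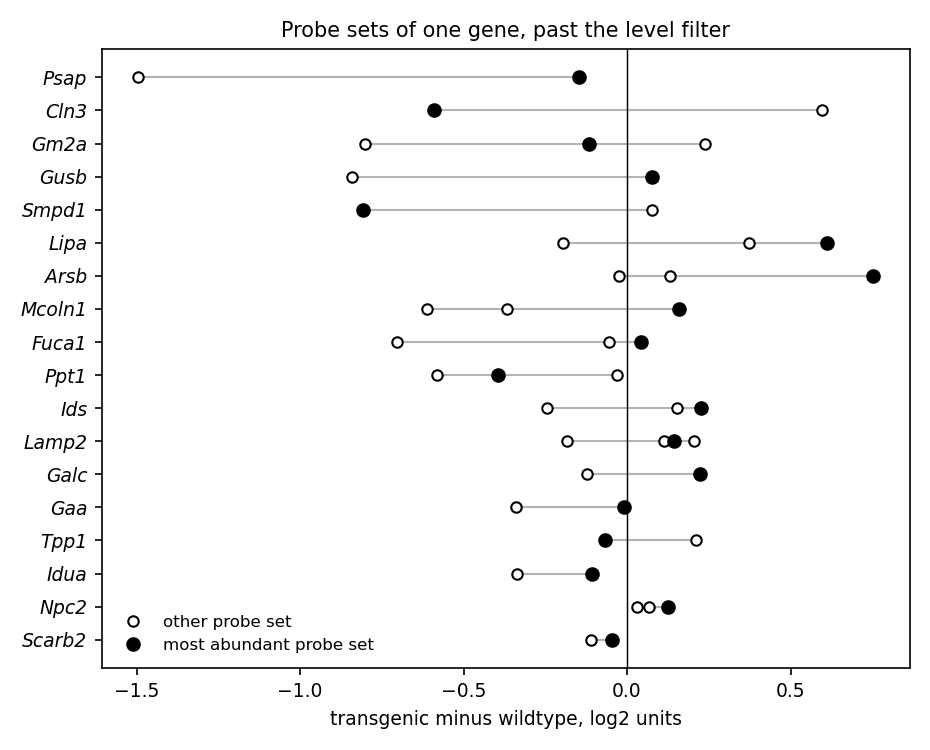
Log2 difference between transgenic and wildtype means (x axis) for each probe set of the 18 lysosomal genes with more than 1 probe set past the level filter, filled for the most abundant and open for the others. The widest gap is that of Psap, from -1.49 to -0.15, and in 12 genes the points fall on both sides of 0.

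The widest gap was in Psap, a gene singled out here after its values were seen. Its most abundant probe set measured 12.28, 12.68, 12.95 and 12.40 in transgenic 7, 11, 17 and 84, and 13.08, 12.75 and 12.34 in wildtype 26, 28 and 29. The other measured 8.97, 10.99, 10.58 and 8.96 in the same transgenic and 11.88, 11.40 and 10.83 in the same wildtype animals, a difference of -1.49 (SE 0.53, limma adjusted p = 0.359). Transgenic 7 and 84 were far below all other animals in the second probe set, while in the first transgenic 84 lay within the wildtype range and transgenic 7 just below it. The second gave 0.07 when adjusted for the ratio.

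The same was looked at in every gene with a further probe set, as the level of the probe set whose difference lay farthest from that of the most abundant, minus the level of the most abundant, in each animal. In 9 of the 18 genes the 2 differences were more than 0.5 apart, against 42.9% of the 5915 genes with a further probe set. In 8 of the 9 (Arsb, Fuca1, Gm2a, Gusb, Lipa, Mcoln1, Psap and Smpd1) transgenic 11, which had the lowest Gapdh ratio of the transgenic animals, stood nearest to the wildtype mean, against 65.5% of the genes so far apart in the whole table. In Psap the gap was -1.20 to -1.51 in the wildtype animals, -1.69 in transgenic 11, -2.37 in transgenic 17 and -3.31 and -3.44 in transgenic 7 and 84. In Smpd1 it ran the other way, from -2.94 to -3.13 in the wildtype animals, -2.79 in transgenic 11, -2.30 in transgenic 17 and -1.86 and -1.72 in transgenic 7 and 84. In 7 of the 9 genes the further probe set gave the lower difference, against 81.2% of the genes so far apart in the whole table. Among these 7 the gap was lowest in transgenic 7 and 84 in 3 (Gm2a, Mcoln1 and Psap). In Arsb and Fuca1 it was lowest in transgenic 17, at -4.74 and -3.51. In Smpd1 and Cln3 the further probe set gave the higher difference, and the gap was highest in transgenic 7 and 84 (1.15 and 0.32 in Cln3). The part of the Gapdh ratio in these gaps was not tested.

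**Figure D4:**
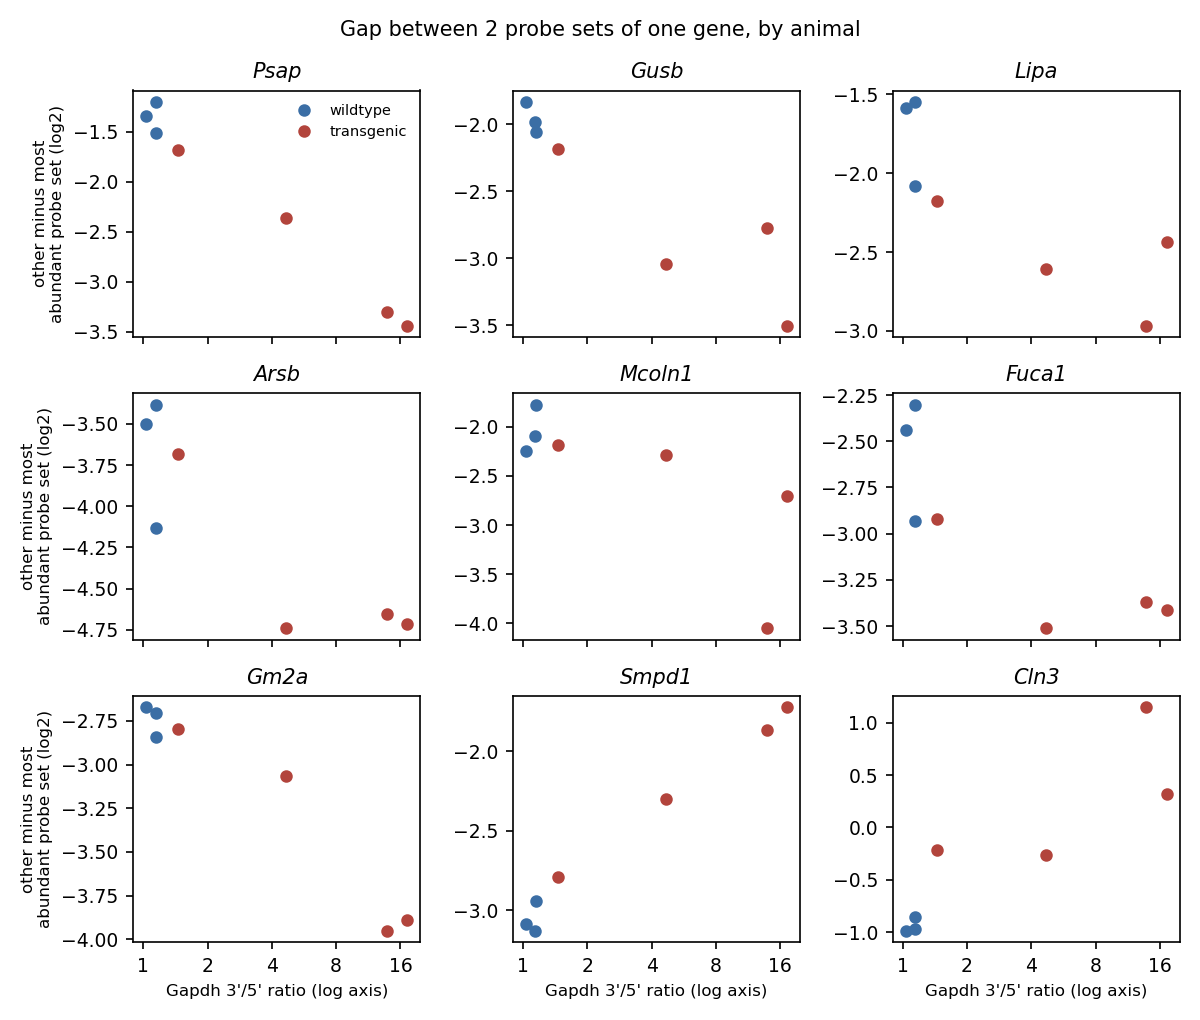
Level of a further probe set minus that of the most abundant probe set of the same gene (y axis, log2 units) against the 3' over 5' Gapdh ratio of the animal (x axis, log scale) for the 9 genes whose 2 differences were more than 0.5 apart, in blue for wildtype and red for transgenic animals. In 8 of the 9, all but Cln3, the transgenic point nearest to the wildtype mean is that of transgenic 11, whose ratio was 1.45.

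Within the transgenic group, transgenic 7 and 84 both lay below transgenic 11 and 17 in 12 of the 32 genes (37.5%, against 23.3% of all genes) and above them in 3 (9.38%, against 23.2%). Adjusted for the ratio, 12 of the 32 genes lay below 0 and the median difference was 0.10, against 0.04 over all genes.

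The wildtype animals differed among themselves in these genes. Wildtype 26 was the highest of the 3 in 24 of the 32 genes (75.0%, against 48.0% of all genes), and wildtype 29 was the lowest in 20 (62.5%, against 34.5%). The order 26 above 28 above 29 held in 19 genes (59.4%, against 27.3%), among them Hexa at 12.56, 12.03 and 11.22 and Manba at 10.17, 9.46 and 8.76. The median deviation of the 32 genes from their mean over the 7 animals was 0.22 in wildtype 26, 0.0033 in wildtype 28 and -0.20 in wildtype 29, where all genes gave 0.03, -0.02 and -0.02. In transgenic 7, 11, 17 and 84 it was -0.03, -0.03, 0.21 and -0.09. The medians of the transgenic animals lay within the range of the wildtype animals.

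**Figure D5:**
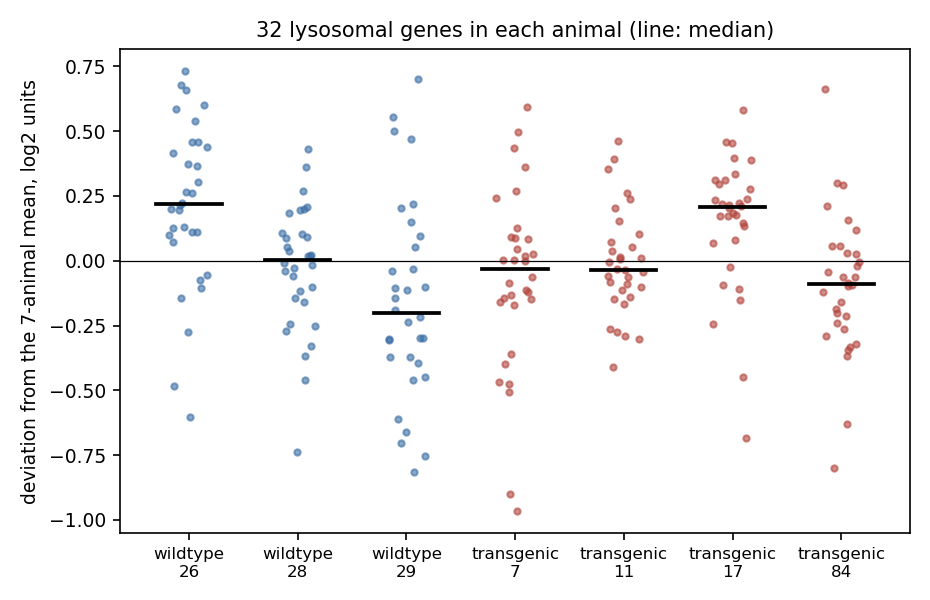
Deviation of each of the 32 lysosomal genes from its mean over the 7 animals (y axis, log2 units) in each animal (x axis), as 1 point per gene with the median as a line. The medians run from -0.20 in wildtype 29 to 0.22 in wildtype 26, and transgenic 17, at 0.21, is the highest of its group, the rest of which lie from -0.09 to -0.03.

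Macrophage, keratinocyte, fibroblast and skeletal muscle markers had the same order over the wildtype animals. Hair shaft, adipocyte, mast cell and melanocyte markers did not. In wildtype 26, 28 and 29 the mean level was 9.52, 8.75 and 9.11 for mast cell and 8.31, 11.20 and 10.64 for melanocyte markers. The median differences of these lists were 0.53 and -0.85. The mean level of 14 macrophage markers was 11.72, 10.90 and 10.53 in wildtype 26, 28 and 29, and 10.90, 11.07, 11.44 and 10.80 in transgenic 7, 11, 17 and 84. The mean of 7 keratinocyte markers was 13.70, 13.52 and 13.21 in wildtype 26, 28 and 29, that of 7 fibroblast markers 13.94, 13.62 and 13.11, and that of 7 skeletal muscle markers 13.11, 12.83 and 12.41. Wildtype 26 and transgenic 17 were the highest animals for the macrophage and the keratinocyte markers, as for the lysosomal genes. All 14 macrophage markers passed the level filter, 9 lay above 0 and 5 below, with a median difference of 0.17. Over all genes 43.7% lay below 0. At an unadjusted p under 0.05 stood Cd163 (0.86) and C1qa (-2.07), 14.3% of the list against 9.0% of all genes. Adjusted for the ratio Cd163 gave 0.36 and C1qa 0.21. Wildtype 26 and transgenic 17 were also the animals with the lowest hair shaft keratins. Of 6 adipocyte markers 5 lay above 0, with a median of 0.43. Their mean level was 11.39, 11.75, 11.99 and 11.94 in transgenic 7, 11, 17 and 84, and 11.46, 11.04 and 11.23 in wildtype 26, 28 and 29. At an unadjusted p under 0.05 stood 66.7% of them, 3 higher and 1 lower, against 9.0% of all genes. The groups did not overlap in Lep (2.52) and Fabp4 (0.38), higher in transgenic skin, as in 5.16% of all genes. Limma called 0 of the 6. The part of these cells in the lysosomal values was not tested.

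Other genes of the lysosome were described by 5 further lists. Of 25 further hydrolases and soluble proteins 19 were measured, 13 above and 6 below 0, with a median of 0.09 and Plbd2, a phospholipase-like protein, lowest at -1.10 (limma adjusted p = 0.403). Plbd2 turned to 0.11 when adjusted for the ratio, and its other probe set gave -0.22. Of 21 further membrane proteins 19 passed the level filter, with 9 above 0 and a median of -0.08. Of 21 genes of the vacuolar proton pump, which acidifies lysosomes, 18 passed, with 8 above 0 and a median of -0.02. The pump subunit gene Atp6v1b2 measured 10.93 ± 0.29 in transgenic (SD, n = 4) and 11.49 ± 0.06 in wildtype skin (SD, n = 3) without overlap (-0.56, limma adjusted p = 0.333), and its other 3 probe sets ran from -0.77 to 0.19. It gave -0.17 when adjusted for the ratio. All 14 sorting genes passed, among them the mannose 6-phosphate receptors, with a median of -0.10. Of 17 regulators 16 passed, with a median of 0.03, and Lamtor3, a subunit of the complex that anchors mTORC1 to the lysosome, gave 0.32 without overlap (adjusted p = 0.424) and 0.10 when adjusted for the ratio. No gene of these 5 lists was called by limma, and 4 of 86 (4.65%) stood at an unadjusted p under 0.05 (Plbd2, Cd164, Atp6v1b2 and Lamtor3), against 9.0% of all genes.

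The 9 genes that carry GTCACGTG had a median difference of 0.02 (range -0.59 for Cln3 to 0.42 for Sgsh, 5 above 0). The 21 that do not had a median of -0.01 (range -0.81 for Smpd1 to 0.75 for Arsb, 10 above 0). At an unadjusted p under 0.05 stood 0 of the 9 and 4 of the 21, against 9.0% of all genes, and sets this small do not tell these shares apart. Asah1 and Npc1, without a window, were in neither set, and Npc1 also stood at an unadjusted p under 0.05. The interaction of group and sex, tested with limma across all probe sets, was called in 0 of the 32 genes and in 0.0% of all probe sets. At an unadjusted p under 0.05 it held 1 gene, Smpd1 (interaction -0.89, limma adjusted p = 0.9998), against 2.86% of all probe sets.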

How the data were processed

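The authors deposited 1 column of linear intensity for each of the 8 arrays, made with MAS5 per the submitters' processing notes (version not given in the sources used here). Without the 2% at each end, the mean intensity was 500.003 on each array. Gene symbols came from the platform annotation: of 45037 probe sets, 34945 carried a single symbol, 932 more than 1 and 9160 no symbol.

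A pseudocount of 21.8, the table's 20th percentile, was added before log2 was taken. The arrays of wildtype 29 were averaged. Probe sets with a mean below the 40th percentile (6.45) were left out, which left 27022. The group difference was tested with limma 3.58.1 (R 4.3.3, no covariate, trended empirical Bayes, 2-sided p, Benjamini-Hochberg over all 27022). Whether a gene's groups overlap was read from the animals' values. The fit was tested on simulated data. Figures used Python 3.11.15 and matplotlib 3.10.9.

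Values by animal are given for genes called, without overlap, at an unadjusted p under 0.05, among the 6 largest differences, or with a further probe set of the other sign more than 1 apart; Lamp1, Lamp2, Manba, Hexa, Psap and Fuca1 were added after their values were seen. Of related lists at most 3 genes each were named by smallest p. The element's stretches and the cell type marker values were also chosen after seeing results. The genes and lists were chosen with earlier results of these data known. Alternatives covered normalization, pseudocount, level filter, empirical Bayes options, sex and the Gapdh ratio as covariates, the arrays of wildtype 29, the probe set per gene and each animal left out. Limma p-values set a group difference against the spread between these animals, moderated over all probe sets tested. They do not tell group and Gapdh ratio apart.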

Additional observations from a re-analysis of the deposited data

Results flagged for a closer look

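In Manba, the beta-mannosidase gene, transgenic 17 stood at 9.91, apart from the other 3 transgenic animals, which lay between 9.55 and 9.60. Its distance from them was large relative to the range of the group by Dixon's test. Chance sets apart about 1 group in 20 by this test, and 1 of the 32 genes was set apart in the transgenic group.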

How the results depend on the processing

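No paired analysis was possible because the groups share no animal numbers. No gene was called in any of the 23 alternatives, over which the lowest adjusted p was 0.0738 (Smpd1 without transgenic 11). The median difference ran from -0.12 without wildtype 29 to 0.13 without wildtype 26. Genes at an unadjusted p under 0.05 (5) numbered 1 when adjusted for the Gapdh ratio (2.56% of all genes), 1 without transgenic 7 and 84 (3.38% of all genes), 1 with the mean over probe sets (10.03% of all genes) and 1 to 8 with an animal left out (3.88% to 15.2% of all genes). Genes without overlap (3) numbered 5 without transgenic 7 and 84 (17.6% of all genes) and 3 to 12 with an animal left out (11.1% to 29.2% of all genes). With the second most abundant probe set 10 of 18 lay below 0. Of 722 single values 664 kept their sign and 58, in 21 genes, did not. The cause of these changes was not tested. Over these alternatives 11 genes never changed sign, but probe sets below the second entered only through the mean over probe sets. Of the 11, Arsb (-0.02), Gm2a (0.24), Lamp2 (-0.18) and Lipa (-0.20) had such a probe set of the other sign.

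Adjusted for the Gapdh ratio, the sign turned for Man2b1 (0.15), Lgmn (0.13), Ids (-0.24), Naglu (0.19), Psap (0.16), Neu1 (0.021), Cln3 (0.39) and Galc (-0.15). With the second probe set it turned for Mcoln1 (-0.37), Galc (-0.12), Smpd1 (0.075), Gusb (-0.84), Cln3 (0.59), Fuca1 (-0.054) and Tpp1 (0.21), and with the mean over probe sets for Fuca1 (-0.24), Gusb (-0.38), Mcoln1 (-0.27), Cln3 (0.0016) and Tpp1 (0.072). Without transgenic 7 and 84 it turned for Galc (-0.0099), Ids (-0.028), Cln3 (0.037), Man2b1 (0.12), Psap (0.091) and Naglu (0.018). With 8 arrays as separate samples Man2b1 gave 0.047 and Gaa 0.105, with sex as a covariate 0.036 and 0.029. Gaa gave 0.010 after cyclic loess and 0.012 after quantile normalization, and Fuca1 -0.015 and -0.0050. With an animal left out the ranges were -0.21 to 0.39 for Arsa, -0.10 to 0.18 for Fuca1, -0.24 to 0.17 for Gaa, -0.015 to 0.39 for Galc, -0.56 to 0.036 for Gla, -0.21 to 0.37 for Gusb, -0.29 to 0.38 for Hexa, -0.22 to 0.015 for Idua, -0.14 to 0.093 for Man2b1, -0.16 to 0.55 for Manba, -0.026 to 0.26 for Npc2, -0.34 to 0.032 for Psap and -0.11 to 0.040 for Scarb2.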
